A study of Mus musculus with 18 samples.

Results

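The 42 genes described here encode collagens and other proteins of the extracellular matrix, with a few enzymes and an inhibitor that act on it. They were given as a list of symbols and matched by Ensembl identifier in GENCODE M21, and all 42 are protein-coding genes among the 55414 genes of the deposited count table. By role they are 6 fibrillar collagen chains, 12 basement membrane genes, 7 other collagen chains, 8 genes of elastic fibres and crosslinking, 4 adhesive or matricellular glycoproteins, 3 small leucine-rich proteoglycans, and the protease Mmp2 with the inhibitor Timp1. Polyadenylated RNA of wild type C57BL/6J mice was measured in 2 experiments, with 18 libraries in all. In the first, whole spleens were taken after 30 days of filtered air (n = 4) or of PM2.5, fine airborne particles (n = 4). In the second, macrophages were isolated from spleens after 30 days of air (n = 5) or PM2.5 (n = 5), and the design text also mentions filtered air there without saying how long it lasted. The PM2.5 libraries bear the word CAP, an abbreviation left unexplained, and their titles also hold the word Air. Macrophage PM2.5 replicate 1 carries an air treatment tag against its title and was grouped by title. The sources used here do not give age, sex or the method of macrophage isolation. The titles call the replicates biological without naming animals, so the p-values measure only the spread between these libraries.

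Fibrillar collagens assemble into the tensile fibres of connective tissue, while type IV collagen, laminins, nidogens and perlecan form the thin basement membranes beneath endothelium and around smooth muscle. In the spleen, matrix is made mainly by fibroblastic reticular cells, by smooth muscle and fibroblasts of the capsule and trabeculae, and by endothelium, and the outer surface is covered by mesothelium. Macrophages take up and degrade matrix, and they also secrete parts of it, fibronectin among them.

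The spleen libraries held 16493694 to 20352346 counts (air) and 18427891 to 19906706 counts (PM2.5), and the macrophage libraries 18107264 to 29013034 (air) and 18848048 to 33844807 (PM2.5). Of these counts the 42 genes took 0.0773% to 0.117% in air spleens and 0.122% to 0.299% in PM2.5 spleens. Their share was 0.0447% to 0.0653% in air macrophages and 0.0406% to 0.0549% in PM2.5 macrophages. All 12 red pulp macrophage markers were called higher in air macrophages than in air spleen, with a median log2 difference of 5.35. In that comparison 33.3% of all genes were called higher and 33.3% lower. In the macrophage libraries the B cell markers, 8 of 8 called lower than in air spleen, summed to 2069 to 3244 CPM in air and 2422 to 3669.8 in PM2.5 libraries. Endothelial markers summed to 717 to 905 and 624 to 786 CPM, with 4 of 12 called higher and 7 lower in air macrophages. Erythroid markers, 9 of 10 called higher in air macrophages, summed to 2290 to 8058 and 3960 to 6969 CPM. CPM are counts scaled by the TMM-adjusted library total within each experiment.

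In the spleens of air-exposed mice the matrix genes spanned levels from Sparc at the top to Col8a1 at the bottom. These levels are RPKM, CPM per 1000 bases of exon, with all 18 libraries scaled together, and serve to compare genes. Sparc, a secreted collagen-binding glycoprotein, had 32.9 ± 8.52 RPKM (SD, n = 4) and biglycan, Bgn, a small proteoglycan that binds collagen, had 28.9 ± 6.34 RPKM. The libraries of these 2 genes overlapped, at 25.2 to 43.8 and 23.5 to 35.8 RPKM. Sparc made up 22.7% and Bgn 20.2% of the summed RPKM of the 42 genes. Decorin, Dcn, a proteoglycan that coats collagen fibrils, followed at 11.6 ± 3.88 RPKM, with every library below those of Bgn, and Col1a2, a chain of type I collagen, at 7.7 ± 1.71 RPKM, which overlapped Dcn. Below Col4a1, of type IV collagen, at 4.33 ± 0.832 RPKM, came 6 genes whose means lay close together and whose libraries overlapped: Fbln5, Nid1, Fn1, Col4a2, Col1a1 and Timp1, from 3.84 ± 0.996 RPKM to 3.61 ± 1.83 RPKM. Col8a1 had 0.0506 ± 0.0712 RPKM and Fbln1 0.162 ± 0.126 RPKM, each with a library at 0.

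After PM2.5, 41 of the 42 genes had a higher fitted level in the spleen than after air, and the median log2 fold change was 0.87, against 0.02 over all 16551 genes tested. Only Timp1 was lower, by less than its error. No single gene passed the test at an adjusted p of 0.05, edgeR's quasi-likelihood test with Benjamini-Hochberg adjustment over all genes, and the smallest adjusted p was 0.118. In all, 0.0121% of genes were called. At an unadjusted p under 0.05, 25 of the 42 were higher and 0 lower, where 8.93% of all genes were higher at that level. Positive fold changes made up 51.8% of all genes. In 11 of the 42 every PM2.5 library lay above every air library, against 4.41% of all genes, and in 0 every PM2.5 library lay below, against 4.54%. The fold changes of 18 genes were above 2-fold. The count at an unadjusted p under 0.05 was 15 of the 42 when PM2.5 replicate 4 was omitted, with 6.09% of all genes. It was 6, with 4.49% of all genes, when air replicates 3 and 4 were omitted, and 9, with 4.38%, when PM2.5 replicates 2 and 4 were. Separated matrix genes numbered 17 when either air replicate 1 or 2 was omitted, where 7.66% and 8.87% of all genes separated, and 19 when PM2.5 replicate 1 was, where 7.21% did.

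The count of called genes depended on the fit. DESeq2 called 12 of the 42 genes, all higher, and 5.01% of all genes. Without a filter on low counts edgeR called 11 of them and 1.55% of all genes, and the joint fit of both experiments called 10 and 5.91%. With 1 library left out edgeR called 1 at most: Lamb2 without air replicate 2 (adjusted p = 0.0411) and Col14a1 without PM2.5 replicate 1 (adjusted p = 0.0494). Of all genes, 1.28% and 0.804% were called in those fits.

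**Figure D1:**
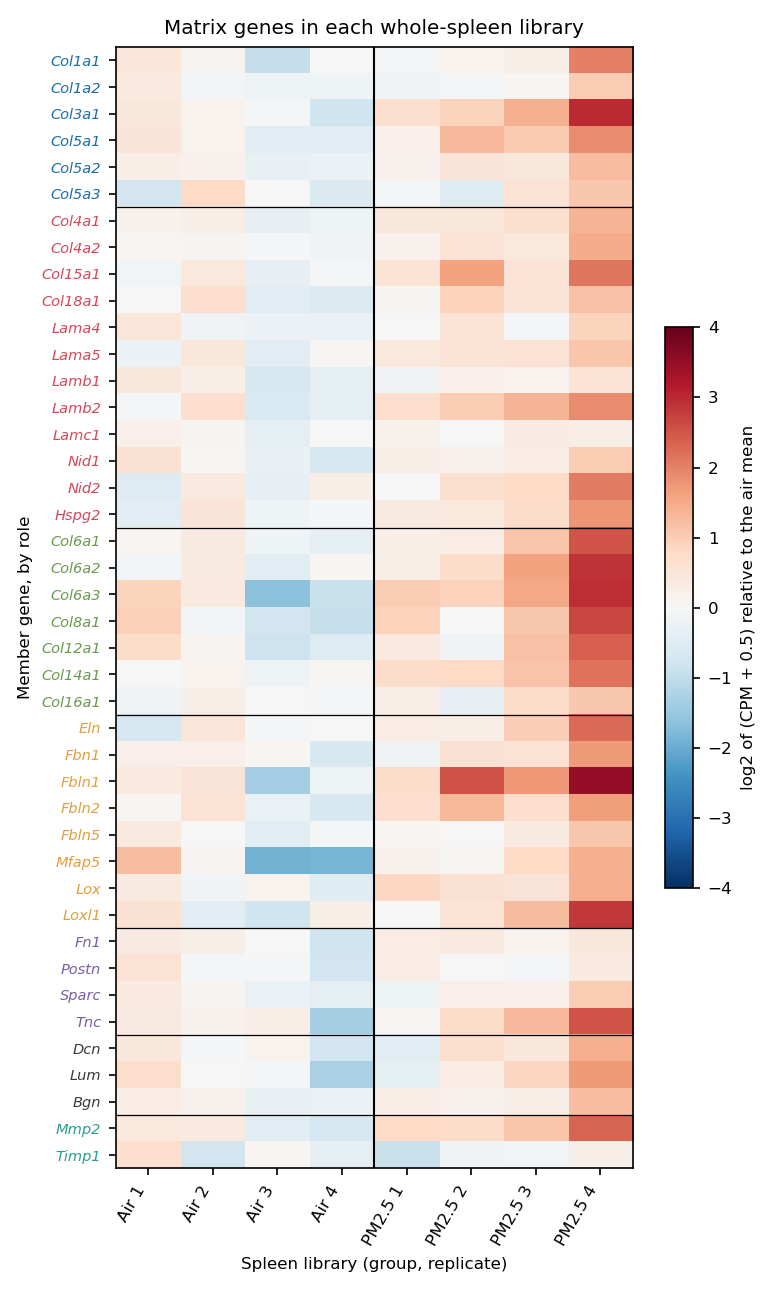
Each row is 1 of the 42 matrix genes, coloured and grouped by role, and each column a whole-spleen library; the colour gives log2 of the CPM plus 0.5 relative to the mean of the 4 air libraries. PM2.5 replicate 4 is above the air mean for 42 of 42 genes and is the highest library for 39 of them, and air replicates 3 and 4 hold 19 and 17 of the lowest values.

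The difference was uneven over the libraries. The median over the 42 genes of the ratio to the air mean was 1.32, 1.13, 0.812 and 0.778 in air replicates 1 to 4, and 1.19, 1.42, 1.59 and 3.14 in PM2.5 replicates 1 to 4. PM2.5 replicate 4 was the highest library for 39 genes, and air replicates 3 and 4 were the lowest for 19 and 17. Air replicate 1 lay above PM2.5 replicate 1 on this measure, so the groups overlapped. Without PM2.5 replicate 4 the median log2 fold change was 0.53, without air replicates 3 and 4 it was 0.61, and without PM2.5 replicates 2 and 4 it was 0.57. These omissions of 2 libraries left 38 and 40 of the 42 genes above 0.

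Markers of several other cell types were mostly higher or mostly lower by fitted level in the PM2.5 than in the air spleens, and none of the markers was called. Summed over the 42 genes, the level was 1273, 1130.2, 863 and 815 CPM in air replicates 1 to 4 and 1136, 1307, 1425 and 2831 CPM in PM2.5 replicates 1 to 4. The 12 mesothelial markers summed to 8.17, 11.9, 7.4 and 8.42 CPM and 76.3, 57, 168 and 317 CPM, with 10 of 10 tested markers higher and none at 0 in a whole group. Both sums were highest in PM2.5 replicate 4 and next highest in PM2.5 replicate 3. The endothelial, red pulp macrophage and platelet sums had the same highest and next highest libraries. Smooth muscle and pericyte markers, 8 of 10 higher, summed to 278 to 495 CPM in air and 299 to 883 in PM2.5 libraries. Endothelial markers, 10 of 12 higher, summed to 311 to 362 and 363 to 492 CPM, and adipocyte markers, 6 of 6 tested higher, to 3.68 to 267 and 2.52 to 629 CPM. The adipocyte sums overlapped widely, with 0 of the 6 at an unadjusted p under 0.05. Fibroblast and reticular markers, 7 of 12 higher, had log2 fold changes from -0.68 to 2.91 with a median of 0.48. Their sum went against that median, at 1478 to 1902 and 1325 to 1658 CPM, and was lowest in PM2.5 replicate 4. Erythroid markers, 10 of 10 higher, summed to 379 to 3190.4 CPM in air and 1006 to 17279 in PM2.5 libraries. Red pulp macrophage markers, 12 of 12 higher, summed to 635 to 1039 and 945 to 1312 CPM, and platelet markers, 7 of 7 tested higher, to 66 to 199 and 93.4 to 285 CPM. Lymphocyte markers went the other way: T cell markers, 7 of 8 lower, summed to 1099.9 to 1553 CPM in air and 838 to 1119 CPM after PM2.5, and B cell markers, 8 of 8 lower, to 6373 to 7497 and 4552 to 6255 CPM. Of 4 liver markers tested 3 were lower, each at an unadjusted p under 0.05. The 8 listed summed to 105 to 169 CPM in air and 86.6 to 246 CPM after PM2.5. The part of these cell types in the matrix result was not tested, and in whole tissue fewer cells of a type and less RNA per cell cannot be told apart.

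**Figure D2:**
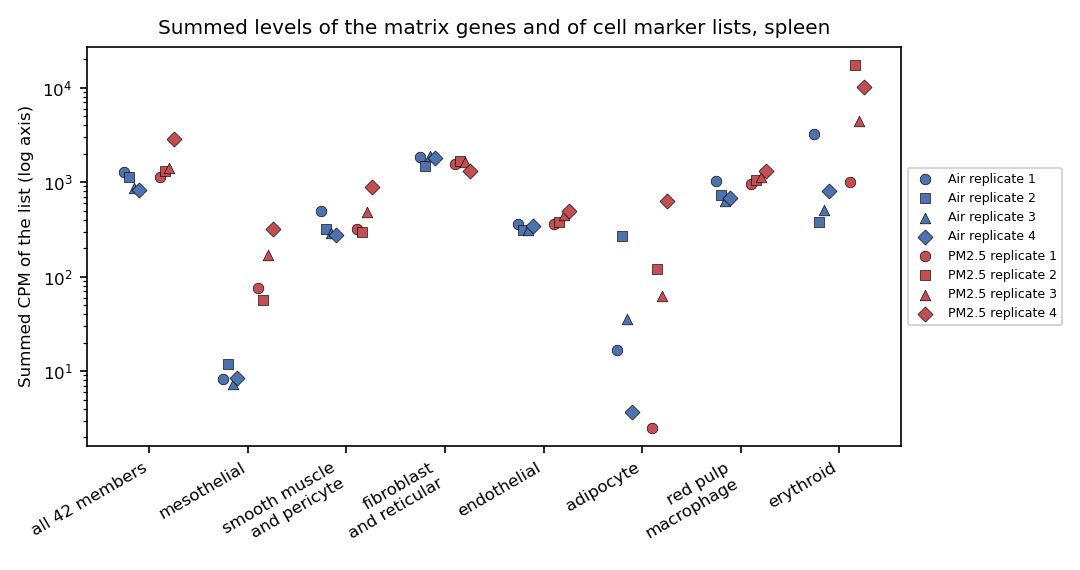
Summed CPM (log axis) of the 42 matrix genes and of cell marker lists in each whole-spleen library, with air in blue, PM2.5 in red and the symbol shape giving the replicate. All 4 PM2.5 libraries lie above all air libraries for the mesothelial list and, narrowly, for the endothelial list (lowest PM2.5 363 CPM, highest air 362 CPM). PM2.5 replicate 4 is the highest for the matrix genes at 2831 CPM.

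Among the fibrillar collagens, all 6 were higher and 3 had an unadjusted p under 0.05, with a median log2 fold change of 0.77. Col3a1, the chain of type III collagen that is typical of reticular fibres, stood at 38, 30.6, 25.8 and 15.5 CPM in air replicates 1 to 4 and 43, 51.8, 74.2 and 223 CPM in PM2.5 replicates 1 to 4. The groups did not overlap, and the highest PM2.5 library stood far above the other 3. Its log2 fold change was 1.83 (SE 0.49, adjusted p = 0.133). Col5a1, a chain of type V collagen that sets fibril width, had 9.89, 7.38, 4.76 and 4.8 CPM in air and 7.71, 17.3, 14.3 and 26 in PM2.5 libraries. PM2.5 replicate 1 lay inside the air range, and the log2 fold change was 1.28 (SE 0.37, adjusted p = 0.142). Both chains of type I collagen, the main fibre of connective tissue, were less separated. Col1a1 had 37.6, 28.9, 13.6 and 26.6 CPM in air and 26, 29.3, 31.3 and 109 in PM2.5 libraries, with only PM2.5 replicate 4 above every air library, for a log2 change of 0.87 (SE 0.46, adjusted p = 0.37). Col1a2 had 141, 99.1, 93.3 and 94.5 CPM in air and 96.8, 103, 114 and 218 in PM2.5 libraries, for a log2 change of 0.31 (SE 0.25, adjusted p = 0.571). Again PM2.5 replicate 4 alone lay above the air range. Per length, the ratio of Col3a1 to Col1a2 was 0.208 to 0.392 in the air libraries and 0.562 to 1.3 in the PM2.5 libraries, with no overlap. The ratio was not tested, and was chosen after its values were seen. Col5a2 and Col5a3 had log2 fold changes of 0.67 (SE 0.26) and 0.48 (SE 0.54).

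All 12 basement membrane genes were higher, 8 with an unadjusted p under 0.05, and their median log2 fold change was 0.77. Lamb2, a laminin beta chain of vessel and muscle basement membranes, had 14.5, 24.3, 9.68 and 11.7 CPM in air and 24.8, 30.7, 39.1 and 57.1 in PM2.5 libraries. Every PM2.5 library lay above every air library, though air replicate 2 came within 1 CPM of PM2.5 replicate 1, and the log2 fold change was 1.33 (SE 0.32, adjusted p = 0.124). Col15a1, a collagen that links basement membranes to the surrounding fibres, had 2.32, 3.58, 1.96 and 2.43 CPM in air and 4.02, 8.85, 4.01 and 13.1 in PM2.5 libraries, with no overlap and a log2 change of 1.54 (SE 0.42, adjusted p = 0.135). Col4a1 of type IV collagen, the network of every basement membrane, had 40.9, 42.4, 28.8 and 32.1 CPM in air and 49.5, 49.7, 55.9 and 92.8 in PM2.5 libraries. Its groups did not overlap, 3 of the PM2.5 libraries lay close to the air range, and the log2 fold change was 0.78 (SE 0.22, adjusted p = 0.14). Its partner chain Col4a2 had a log2 fold change of 0.75 (SE 0.25), also without overlap, and the ratio of the 2 chains per length stayed between 0.973 and 1.39 in all spleen libraries. The remaining genes differed in size: 1.26 for Nid2 (SE 0.49), 0.95 for Hspg2, perlecan (SE 0.32), 0.78 for Col18a1 (SE 0.33) and 0.70 for Lama5 (SE 0.24). Nid1, Lama4, Lamb1 and Lamc1 lay at 0.49, 0.43, 0.22 and 0.20, each with an unadjusted p above 0.05. Lamc1, the gamma chain shared by most laminins, was nearly level, at 34.7, 32.8, 23.4 and 30.3 CPM in air and 34.5, 30.2, 38.5 and 36.3 in PM2.5 libraries.

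The other collagens had the largest median of the role groups, 1.39, with all 7 genes higher and 5 with an unadjusted p under 0.05. Col14a1, which binds to the surface of collagen fibrils, had the smallest p of the 42 genes. It stood at 17.9, 19.7, 15.3 and 18.3 CPM in air and 29.6, 31.4, 39.6 and 81.2 in PM2.5 libraries, a tight air group below every PM2.5 library, and its log2 fold change was 1.35 (SE 0.30, adjusted p = 0.118). Type VI collagen forms beaded filaments near basement membranes. Its chain Col6a2 had 5.91, 8.45, 4.55 and 6.92 CPM in air and 7.67, 11.1, 20.6 and 51.1 in PM2.5 libraries, with PM2.5 replicate 1 inside the air range and a log2 change of 1.81 (SE 0.51, adjusted p = 0.141). The partner chains Col6a1 and Col6a3 had log2 fold changes of 1.39 (SE 0.46) and 2.0 (SE 0.65), and Col6a3 did not overlap. Col8a1, Col12a1 and Col16a1 had 2.32 (SE 1.07), 1.38 (SE 0.57) and 0.55 (SE 0.28), all with overlapping groups, and Col8a1 was at 0.437 to 5.5 CPM in PM2.5.

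In the elastic fibre and crosslinking group all 8 genes were higher, 6 with an unadjusted p under 0.05, and the median was 1.09. Fbln1, a fibulin of elastic fibres and basement membranes, had the largest fold change of the 42 genes from a low level. It had 1.19, 1.34, 0 and 0.624 CPM in air and 1.64, 6.99, 3.82 and 14.2 in PM2.5 libraries, without overlap, for a log2 change of 3.07 (SE 0.86, adjusted p = 0.138). Fbln2, a related fibulin, had 7.24, 10.5, 5.61 and 4.24 CPM in air and 11.3, 18.2, 11.5 and 22.9 in PM2.5 libraries, also without overlap, for 1.21 (SE 0.33, adjusted p = 0.135). Eln, elastin, the rubber-like core of the elastic fibre, had 11, 25.1, 16.5 and 17.9 CPM in air and 21.6, 21.1, 35.4 and 87.4 in PM2.5 libraries. Only PM2.5 replicates 3 and 4 lay above its air range, and the log2 fold change was 1.23 (SE 0.44, adjusted p = 0.201). Lox, the lysyl oxidase that crosslinks collagen and elastin, had 6.37, 4.28, 5.34 and 3.31 CPM in air and 8.88, 7.65, 7.14 and 14.2 in PM2.5 libraries. These groups did not overlap, and the log2 fold change was 0.97 (SE 0.30, adjusted p = 0.154). The related oxidase Loxl1 had 1.64 (SE 0.58), the microfibril genes Fbn1 and Mfap5 had 0.87 (SE 0.37) and 0.80 (SE 0.76), and Fbln5 had 0.45 (SE 0.26), all with overlapping groups.

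Of the 4 adhesive and matricellular genes all were higher, with a median of 0.35, and 1, Tnc, had an unadjusted p under 0.05. Sparc had 183, 149, 115 and 108 CPM in air and 119.7, 159.7, 159 and 284 in PM2.5 libraries, overlapping groups and a log2 change of 0.38 (SE 0.26, adjusted p = 0.492). Fn1, fibronectin, an adhesive glycoprotein that integrins bind, had 63.3, 57.8, 48.8 and 28.1 CPM in air and 61.3, 64.5, 55 and 67.8 in PM2.5 libraries. The PM2.5 libraries lay close together, air replicate 4 stood low, and the log2 fold change was 0.33 (SE 0.21, adjusted p = 0.474). Postn, periostin, a matricellular protein of healing tissue, had 27, 17.2, 17.3 and 10.4 CPM in air and 22.2, 18.4, 17.3 and 23.9 in PM2.5 libraries, all PM2.5 libraries within the air range, for 0.19 (SE 0.26, adjusted p = 0.758). Tnc, tenascin C, was at 0.18 ± 0.0974 RPKM in air and had a log2 fold change of 1.71 (SE 0.65). All 3 proteoglycans were higher, 1 with an unadjusted p under 0.05, with a median of 0.68. Dcn had 103, 71, 83.9 and 44.3 CPM in air and 55.5, 119, 104 and 206 in PM2.5 libraries, with a log2 change of 0.68 (SE 0.35, adjusted p = 0.359). Its PM2.5 replicate 1 lay below 3 air libraries. Bgn had 0.55 (SE 0.24) and Lum, lumican, 1.19 (SE 0.88), both with overlapping groups. Mmp2, a gelatinase that cuts denatured and type IV collagen, had 7.04, 6.9, 3.7 and 2.93 CPM in air and 9.26, 8.85, 11.8 and 27.9 in PM2.5 libraries, with no overlap and a log2 change of 1.49 (SE 0.43, adjusted p = 0.142). Timp1, an inhibitor of matrix metalloproteases, had 5.97, 1.93, 3.75 and 2.62 CPM in air and 1.68, 3.17, 3.27 and 4.32 in PM2.5 libraries, and was the only gene with a negative value, -0.20 (SE 0.42, adjusted p = 0.85).

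Upstream sequences, from RefSeq on GRCm38.p6, were held for 27 of the 42 genes. The 250 bases before the annotated start are shown for Col3a1, the fibrillar collagen with the largest fold change in the spleen, for Bgn, an abundant gene with a small difference, and for Timp1, the gene that was lower. Capitals mark the TATA, CCAAT and GC boxes or their reverse complements. Both strands were searched, and no annotated exon lies in these windows.
Col3a1, chr1:45311288-45311537, plus strand: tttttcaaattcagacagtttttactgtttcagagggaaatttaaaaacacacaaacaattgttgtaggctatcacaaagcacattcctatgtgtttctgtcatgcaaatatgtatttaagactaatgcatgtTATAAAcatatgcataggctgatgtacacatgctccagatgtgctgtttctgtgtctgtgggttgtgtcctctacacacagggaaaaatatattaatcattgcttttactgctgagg
Bgn, chrX:73483351-73483600, plus strand: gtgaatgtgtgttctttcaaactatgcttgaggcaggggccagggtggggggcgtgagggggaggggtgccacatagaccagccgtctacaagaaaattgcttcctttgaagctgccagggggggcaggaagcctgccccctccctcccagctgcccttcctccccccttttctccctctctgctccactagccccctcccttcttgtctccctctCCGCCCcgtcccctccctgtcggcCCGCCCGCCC
Timp1, chrX:20869916-20870165, plus strand: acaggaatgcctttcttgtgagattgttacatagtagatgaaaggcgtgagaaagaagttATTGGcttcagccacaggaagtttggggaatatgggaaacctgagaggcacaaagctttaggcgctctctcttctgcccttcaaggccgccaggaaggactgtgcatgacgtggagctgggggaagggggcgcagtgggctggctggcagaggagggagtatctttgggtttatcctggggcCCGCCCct
The Col3a1 window holds a TATA box that begins 117 bases before the start, the Bgn window 3 GC boxes near the start, the last 2 of them overlapping, and the Timp1 window a CCAAT box and a GC box. The GC box, spelled GGGCGG, was in 21 of the 33 windows of the 27 genes (63.6%), against 32.7% of all 32851 windows. CCAAT was in 10 (30.3%), against 33.9%. The TATA box, searched as TATAAA, was in 4 (12.1%), against 12.4%. The matches describe letters in these windows, and whether any factor binds there was not measured.

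Isolated macrophages held a different matrix profile, led by Col14a1. In air, 38 of the 42 genes differed between the preparations at an adjusted p of 0.05 in edgeR's joint fit, 35 lower and 3 higher in macrophages. In all, 66.5% of genes differed, 33.3% higher and 33.3% lower. The median log2 difference of the 42 was -3.60, and the value is the same with Lum and Col8a1, which had 0 counts in every macrophage air library, set to their bounds. The preparations were run in separate experiments, so preparation and experiment cannot be told apart.

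The 3 genes that were higher were Col14a1, Nid2 and Fn1. Col14a1 (ENSMUSG00000022371, chromosome 15, 55307750 to 55520803, GRCm38) had 2.27 ± 0.234 RPKM in air spleen (SD, n = 4) and 42.2 ± 9.55 RPKM in air macrophages (SD, n = 5). Its log2 difference was 4.22 (SE 0.28, adjusted p = 1.67e-10), with every macrophage library above every spleen library. It ranked 16 of 42 per length in air spleen and 1 in air macrophages, where it made up 51.4% of the summed RPKM of the 42 genes. Nid2, nidogen 2, which bridges laminin and collagen networks (ENSMUSG00000021806, chromosome 14, 19751265 to 19811787), had 0.386 ± 0.139 RPKM in air spleen and 9.72 ± 1.42 RPKM in air macrophages. The log2 difference was 4.64 (SE 0.38, adjusted p = 3.86e-09), and its rank went from 34 to 3. Of the exonic bases of Nid2, 8.45% lie opposite exons of Rtraf, and the sources used here do not state how strand was handled in counting. Rtraf was lower in air macrophages than in air spleen, by a log2 difference of -0.94 (adjusted p = 1.29e-05). The effect of the overlap on the Nid2 counts was not tested. Fn1 had 3.8 ± 1.22 RPKM and 11.1 ± 3.41 RPKM, a log2 difference of 1.54 (SE 0.27, adjusted p = 5.75e-05).

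**Figure D3:**
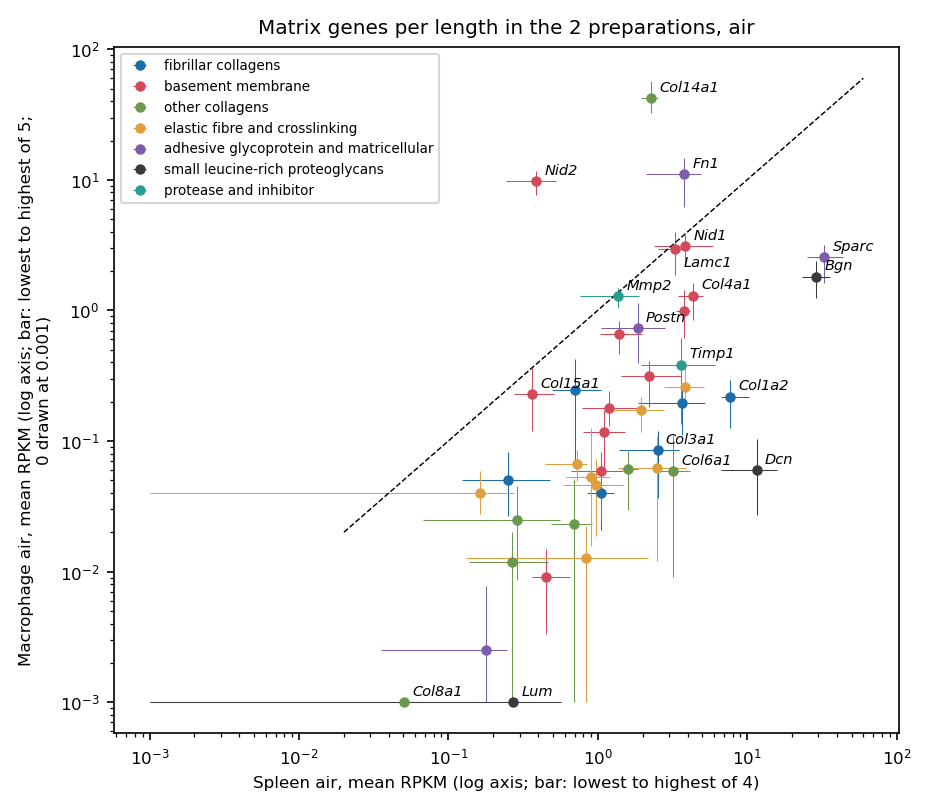
Each point is 1 of the 42 genes, with its mean RPKM in air spleen (horizontal, log axis) against air macrophages (vertical, log axis), bars from the lowest to the highest library, colours for roles and a dashed line of equal levels; 0 is drawn at 0.001. Col14a1, Nid2 and Fn1 lie above the line, Mmp2, Lamc1 and Nid1 on or near it, and the fibrillar collagens below it.

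Structural collagens and proteoglycans were at the other end. Col1a2 had 7.7 ± 1.71 RPKM in air spleen and 0.218 ± 0.0625 RPKM in air macrophages, a log2 difference of -5.14 (SE 0.28, adjusted p = 1.09e-11). Dcn had 11.6 ± 3.88 RPKM and 0.0597 ± 0.0292 RPKM, a log2 difference of -7.65 (SE 0.45, adjusted p = 3.86e-11). In macrophages Dcn was at 0.0273 to 0.103 RPKM and Bgn at 1.25 to 2.41 RPKM. Bgn had 28.9 ± 6.34 RPKM and 1.81 ± 0.515 RPKM, a log2 difference of -4.0 (SE 0.27, adjusted p = 2.23e-10), and Fbln5 had 3.84 ± 0.996 RPKM and 0.258 ± 0.0706 RPKM, a log2 difference of -3.88 (SE 0.26, adjusted p = 2.96e-10). In the same fit the log2 differences were -3.68 for Sparc, -4.87 for Col3a1, -4.20 for Col1a1, -4.18 for Lox, -3.51 for Eln, -3.23 for Timp1, -1.73 for Col4a1 and -1.34 for Postn, all called lower. By role, all 6 fibrillar collagens, all 8 elastic fibre and crosslinking genes and all 3 proteoglycans were called lower, while of the 12 basement membrane genes 8 were lower and 1 higher. Against a floor of 3 counts over the 5 macrophage air libraries, the bounds from the spleen air means were 23.2-fold lower for Lum and 13.8-fold for Col8a1. Both had 0 counts in spleen air replicate 4, so their groups overlapped, and the bounds leave out the spread of the spleen libraries. The 4 genes not called were Mmp2, Lamc1, Nid1 and Col15a1, at -0.08 (SE 0.32), -0.14 (SE 0.22), -0.31 (SE 0.24) and -0.68 (SE 0.37). Mmp2 had 1.37 ± 0.579 RPKM in air spleen and 1.29 ± 0.164 RPKM in air macrophages. Of the 12 fibroblast and reticular markers 11 were called lower in air macrophages and 0 higher, 9 of the 12 passed the filter on low counts in the macrophage experiment, Pdpn had 0 counts in all 10 macrophage libraries, and the list summed to 27.7 to 39.1 CPM in air. Of the 10 mesothelial markers tested 5 were called lower and 1 higher, 3 passed that filter, Bnc1 had 0 counts in all 10 libraries, and the list summed to 4.92 to 6.16 CPM in air.

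PM2.5 left the macrophage matrix profile with no called gene. The filter on low counts kept 27 of the 42 genes, of which 15 were higher and 12 lower. Their median log2 fold change was 0.17, against 0.01 over all genes. The calls numbered 0, as for all genes (0% of 15696), with a smallest adjusted p of 0.258. At an unadjusted p under 0.05, 4 were higher, where 6.24% of all genes were, and 2 were lower, where 4.61% were. In 0 of the 27 did the groups separate, against 1.41% of all genes higher and 0.815% lower, and positive fold changes made up 51.4% of all genes. DESeq2 called 1 of the 42, Nid2 (adjusted p = 0.00836), and 1.11% of all genes. Without PM2.5 replicate 2 the median was -0.08. In the same libraries 11 of 12 red pulp macrophage markers and 10 of 10 endothelial markers tested were lower after PM2.5, and 7 of 8 T cell markers and 10 of 10 erythroid markers were higher, with none called. Their part in the matrix values was not tested. By role, 4 of 5 fibrillar collagens, 5 of 11 basement membrane genes and 3 of 4 elastic fibre and crosslinking genes were higher. All 27 were higher in the PM2.5 spleens, 15 of them higher and 12 lower in macrophages. The 15 genes not tested had 61 counts or fewer over the 5 libraries of either group, and Lum had 0 counts in all 10 libraries.

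The 2 genes most typical of the macrophage preparation were the 2 that were lower at an unadjusted p under 0.05. Nid2 had 47.6, 47, 44.6, 36.1 and 54.8 CPM in air replicates 1 to 5 and 24.9, 36.5, 33.7, 24.5 and 31.2 CPM in PM2.5 replicates 1 to 5. The groups met only where PM2.5 replicate 2 passed air replicate 4, and the log2 fold change was -0.61 (SE 0.13, adjusted p = 0.258). Col14a1 had 231, 265, 283, 208 and 367 CPM in air and 177, 215, 217, 182 and 226 in PM2.5 libraries, with a log2 change of -0.41 (SE 0.14, adjusted p = 0.356). Here 3 PM2.5 libraries lay above the lowest air library. Fn1 was level, with 149, 113, 105, 66.8 and 157 CPM in air and 118, 150.5, 109, 63.5 and 147 in PM2.5 libraries and a log2 change of -0.01 (SE 0.25, adjusted p = 0.994). Its libraries spread more than 2-fold within each group.

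Several genes of low level in macrophages were higher. Col18a1, whose chain yields endostatin, had 0.838, 1.27, 1.1, 1.55 and 0.99 CPM in air and 2.9, 2.0, 2.91, 1.07 and 1.95 in PM2.5 libraries, with a log2 change of 0.92 (SE 0.28, adjusted p = 0.308). Postn had 4.52, 9.02, 3.13, 6.69 and 5.94 CPM in air and 15.7, 10.004, 6.96, 10.7 and 8.44 in PM2.5 libraries, and a log2 change of 0.83 (SE 0.28, adjusted p = 0.345). In both genes PM2.5 replicate 1, the library with the air tag, was among the highest. Lox stayed under 1 CPM in every library, at 0.0689 to 0.553 CPM in air and 0.382 to 0.922 in PM2.5 libraries, for 1.38 (SE 0.50, adjusted p = 0.373). Col1a2 had 1.42, 2.38, 2.86, 3.34 and 2.42 CPM in air and 3.57, 4.21, 3.51, 4.03 and 2.5 in PM2.5 libraries, for 0.52 (SE 0.22, adjusted p = 0.428).

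The other genes had unadjusted p above 0.05 and overlapping groups. Hspg2 had 8.6, 9.02, 8.54, 10.8 and 6.11 CPM in air and 3.63, 8.57, 7.1, 6.31 and 8.3 in PM2.5 libraries, for a log2 change of -0.34 (SE 0.22, adjusted p = 0.598). Lama5, a laminin alpha chain, had 0.656, 1.05, 1.79, 1.37 and 1.27 CPM in air and 0.837, 2.21, 1.55, 1.55 and 2.47 in PM2.5 libraries, for 0.50 (SE 0.31, adjusted p = 0.587). Col5a1 had 0.547, 2.38, 0.964, 2.36 and 3.3 CPM in air and 1.95, 3.3, 4.76, 1.07 and 3.47 in PM2.5 libraries, for 0.67 (SE 0.47, adjusted p = 0.63). Within-group spread was wide at these levels, up to several-fold for Col5a1. Eln had 0.874 to 1.6 CPM in air and 1.1 to 1.72 in PM2.5 libraries, for 0.25 (SE 0.21, adjusted p = 0.689), and Col15a1 0.689 to 2.09 and 1.31 to 1.9 CPM, for 0.32 (SE 0.27, adjusted p = 0.695). Mmp2 had 3.2 to 4.55 and 2.91 to 4.16 CPM, for -0.16 (SE 0.14, adjusted p = 0.702), and Sparc 5.61 to 11 and 5.87 to 11.2 CPM, for -0.10 (SE 0.22, adjusted p = 0.885). Col4a1, at 5.78 to 11.2 and 6.15 to 12 CPM, had a fold change of -0.02 (SE 0.21, adjusted p = 0.978) and its partner Col4a2 one of -0.02 (SE 0.22). Col1a1 and Col3a1, near 1 CPM, had 0.19 (SE 0.29) and -0.17 (SE 0.35).

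**Figure D4:**
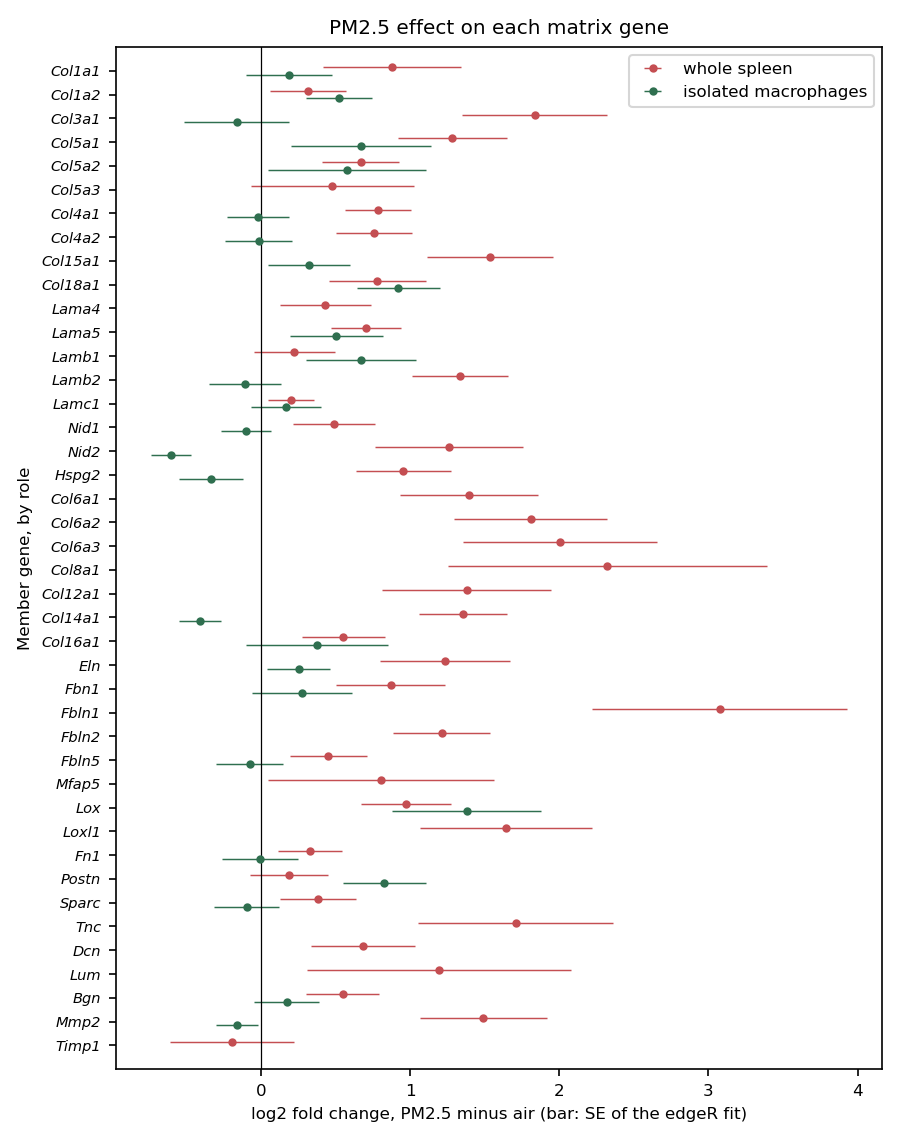
Log2 fold change of PM2.5 against air for each matrix gene in whole spleen (red, 42 genes) and in isolated macrophages (green, 27 genes tested), with bars of 1 approximate SE derived from the edgeR test. The spleen values lie above 0 for 41 of 42 genes, and the macrophage values lie on both sides of 0, with Nid2 the lowest at -0.61.

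Whether the PM2.5 fold change of a gene differed in the 2 preparations was tested in the joint fit. Preparation, experiment and the filtered air mentioned for the second experiment cannot be told apart in this difference. The difference was called for 2 of the 42 genes, Col14a1 and Nid2, both lower in macrophages, where 1.46% of all genes were called. In 37 of the 42 the difference was negative, against 9366 of all 17779 genes. At an unadjusted p under 0.05, 11 were lower, against 10.3% of all genes, and 0 higher, also against 10.3%. The 42 include the 15 genes with too few macrophage counts to be tested there, with Lum at 0 counts. Col14a1 differed by -1.77 (SE 0.33, adjusted p = 0.0183), with 1.35 in the spleen fit and -0.41 in the macrophage fit. Nid2 differed by -1.88 (SE 0.47, adjusted p = 0.0498), from 1.26 and -0.61. Its spleen levels were low, at 1.39, 3.05, 1.69 and 2.81 CPM in air and 2.29, 3.77, 4.26 and 11.2 in PM2.5 libraries, and PM2.5 replicate 4 was far above the others. Rtraf, opposite Nid2, had a difference of 0.77 (adjusted p = 0.0574), and here too the effect of the overlap was not tested. The next 3 genes by p were not called: Mmp2 at -1.66 (SE 0.45, adjusted p = 0.0611), Lamb2 at -1.45 (SE 0.42, adjusted p = 0.073) and Fbln1 at -3.89 (SE 1.21, adjusted p = 0.0883). DESeq2 called 6 of the 42 genes and 5.87% of all genes.

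Leaving out single libraries separated these 2 calls. Col14a1 was called in 18 of 18 such fits, with adjusted p from 0.00653 to 0.0479, and Nid2 in 4 of 18, with adjusted p from 0.0144 to 0.108. Nid2 was called without spleen air replicate 2, spleen PM2.5 replicate 1, spleen PM2.5 replicate 2 or macrophage PM2.5 replicate 2, and not in the other fits. Without spleen PM2.5 replicate 4 its difference was -1.22 (adjusted p = 0.0961). Without spleen air replicates 3 and 4 neither was called, Col14a1 at an adjusted p of 0.139 and Nid2 at 0.178. Without spleen PM2.5 replicates 2 and 4 Col14a1 was called (0.0211). With macrophage PM2.5 replicate 1 counted as air Col14a1 was called (0.0448) and Nid2 was not (0.158). Among the genes reported throughout, the differences of the others were -2.0 (SE 0.69) for Col3a1, -0.81 (SE 0.33) for Col4a1, -1.0 (SE 0.52) for Eln, -0.70 (SE 0.60) for Col1a1, -0.49 (SE 0.36) for Sparc, -0.34 (SE 0.37) for Fn1, -0.34 (SE 0.70) for Dcn and -0.03 (SE 0.59) for Timp1. They were positive at 0.63 (SE 0.41) for Postn, 0.39 (SE 0.57) for Lox and 0.20 (SE 0.35) for Col1a2. None of these 11 was called.

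**Figure D5:**
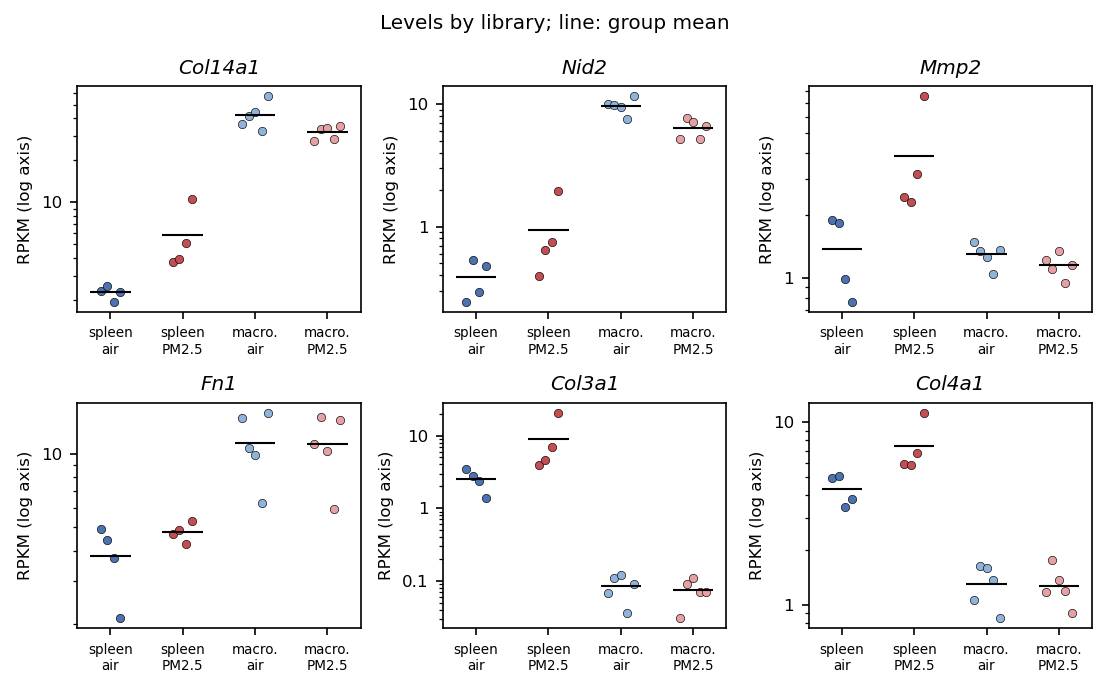
RPKM (log axis) of 6 matrix genes in each library of the 4 groups, with a line at each group mean and all libraries scaled together. Col14a1 and Nid2 are higher in macrophages than in spleen and lie lower in the PM2.5 than in the air macrophage group on average, while in the spleen all 4 PM2.5 libraries of Col14a1, Mmp2, Col3a1 and Col4a1 lie above the air libraries.

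Genes that make, assemble, cut and sense the matrix, from lists that do not overlap the 42, were also mostly higher in the PM2.5 spleens, and none was called. The collagen synthesis enzymes and chaperones had 18 of 22 higher, the crosslinking and fibre assembly genes 22 of 23, the matrix proteases and their inhibitors 15 of 21, the matrix receptors 21 of 25, and the TGF-beta ligands, receptors and targets 17 of 22. Of all genes 51.8% were higher. Efemp1, a fibulin of the elastic fibre, had 1.79 ± 1.1 CPM in air and 20.8 ± 16 in PM2.5 libraries (SD, n = 4), a log2 change of 3.54 (SE 0.67, adjusted p = 0.0941). Tnxb, tenascin X, had 10.4 ± 1.8 and 43.8 ± 34 CPM, for 2.08 (SE 0.44, adjusted p = 0.11). Ccn1 and Ccn2, matricellular genes that respond to TGF-beta and to stretch, had 2.17 (SE 0.45, adjusted p = 0.108) and 1.31 (SE 0.29, adjusted p = 0.118). The integrin chains Itga8, Itga3 and Itga11 had 2.68 (SE 0.62, adjusted p = 0.124), 1.53 (SE 0.40, adjusted p = 0.127) and 1.90 (SE 0.51, adjusted p = 0.133). Among enzymes, P3h2, Adamts2 and P3h3 had 1.38 (SE 0.38, adjusted p = 0.136), 1.44 (SE 0.45, adjusted p = 0.156) and 0.67 (SE 0.23, adjusted p = 0.185). Among protease inhibitors and activators, Timp3, Timp2 and Plat had 1.16 (SE 0.30, adjusted p = 0.127), 0.82 (SE 0.24, adjusted p = 0.147) and 2.06 (SE 0.69, adjusted p = 0.177).

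In macrophages the same lists were split or lower, again with none called: 6 of 19, 7 of 12, 8 of 21, 8 of 22 and 2 of 22 higher, in the same order. Of all genes 51.4% were higher. The TGF-beta list had 20 of 22 lower, with a small median log2 fold change of -0.15. At an unadjusted p under 0.05, 4 were lower, where 4.61% of all genes were. Among the lower genes were Tgfb1, at 514 ± 40.3 CPM in air and 429.7 ± 59.3 in PM2.5 libraries (SD, n = 5), for -0.26 (SE 0.10, adjusted p = 0.40), and Eng and Acvrl1, endothelial co-receptor and receptor of the pathway, for -0.34 (SE 0.11, adjusted p = 0.341) and -0.27 (SE 0.11, adjusted p = 0.40). Pcolce2, which enhances procollagen processing, had 85.3 ± 16.2 CPM in air macrophages and 58.1 ± 8.15 CPM after PM2.5, for -0.55 (SE 0.14, adjusted p = 0.258), and 0.376 ± 0.292 CPM in air spleen on the spleen scale. The lysyl hydroxylase Plod2 had 1.12 (SE 0.33, adjusted p = 0.299), Emilin1 0.46 (SE 0.12, adjusted p = 0.287), Loxl3 -0.35 (SE 0.11, adjusted p = 0.312) and Ltbp2 -0.57 (SE 0.21, adjusted p = 0.376). The macrophage elastase Mmp12 had -0.97 (SE 0.34, adjusted p = 0.36), the plasminogen activator Plau -0.33 (SE 0.12, adjusted p = 0.381) and the inhibitor Timp2 -0.26 (SE 0.12, adjusted p = 0.48). Among receptors, the collagen receptor Ddr1 and the syndecans Sdc3 and Sdc1 had -0.62 (SE 0.21, adjusted p = 0.345), -0.41 (SE 0.16, adjusted p = 0.398) and 1.01 (SE 0.41, adjusted p = 0.40). The difference between the experiments was called for 7 genes of these lists, all lower in macrophages: Pcolce2 -2.43 (SE 0.47, adjusted p = 0.0183), P3h2 -1.70 (SE 0.36, adjusted p = 0.0311), Tgm2 -0.87 (SE 0.20, adjusted p = 0.0408), Ltbp4 -1.80 (SE 0.43, adjusted p = 0.0469), Ddr1 -1.48 (SE 0.33, adjusted p = 0.0392), Eng -1.20 (SE 0.25, adjusted p = 0.0249) and Ccn1 -2.65 (SE 0.56, adjusted p = 0.029). By list, in the same order, 2 of 22, 2 of 23, 0 of 23, 1 of 25 and 2 of 22 tested genes were called. Of all genes 1.46% were called, 185 lower and 74 higher.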

How the data were processed

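The authors deposited 1 table of raw, unnormalized read counts by Ensembl gene for the 18 libraries. Per the submitters' processing notes FastQC 0.10.1 and HTSeq 0.10.0 were used, on builds named mm10 and GRCm38. Extraction used Qiagen RNeasy and library preparation NEBNext Ultra II, per the labels. The sources used here give neither the aligner nor the annotation release nor the handling of strand.

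The counts went into edgeR 4.0.16 (R 4.3.3): filterByExpr (minimum count 10, minimum total 15), TMM scaling and the two-sided quasi-likelihood test on group means, with Benjamini-Hochberg adjustment over all genes tested and calls at 0.05. The spleen and macrophage libraries were fitted separately, and differences between experiments came from 1 joint fit of the 18 libraries. Adjusted p-values are from edgeR unless DESeq2 1.42.0 is named. Each SE is approximate, the absolute log2 fold change divided by the square root of the test's F statistic. RPKM used exonic lengths from GENCODE M21. The main edgeR fits were first tested on simulated data, and DESeq2 and the other alternatives were not. The 42 genes, the gene lists and the tests were chosen with earlier results of these data known.

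Genes given in full were the 10 with the smallest p in each PM2.5 comparison, 5 in the difference and 4 per direction between preparations, at a mean of at least 1 CPM, plus a fixed set of 12. From the pathway lists these were the called genes of the PM2.5 comparisons and their difference, and otherwise the 3 with the smallest p per list. Alternatives were other scalings and filters, DESeq2, a replicate block and the omission of each library. Omissions of 2 spleen libraries for the difference between the experiments, and the counts over alternatives of genes above 0, of genes under an unadjusted p of 0.05 and of separated groups, were chosen after seeing the data. No library was a copy of another in its group.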

Additional observations from a re-analysis of the deposited data

Results flagged for a closer look

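Single libraries stood apart from their group for 12 of 138 sets of a gene and a group, where the gap to the nearest library, divided by the range, exceeded Dixon's 95% value. Chance alone gives such a gap in about 1 of 20 groups, and the genes are not independent. In spleen PM2.5, replicate 4 stood above the other 3 libraries for 7 genes: Col1a1 at 109 CPM, Col1a2 at 218 CPM, Col4a1 at 92.8 CPM, Nid1 at 60.5 CPM, Col6a3 at 33.2 CPM, Bgn at 460.0 CPM and Mmp2 at 27.9 CPM. In spleen air, replicate 1 stood high for Col1a2 at 141 CPM and Lama4 at 8.70 CPM, and replicate 4 stood low for Tnc at 0.312 CPM. In macrophages, Fbln5 stood high at 2.41 CPM in air replicate 3 and Col16a1 at 1.09 CPM in PM2.5 replicate 2.

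The PM2.5 effect was called different between the macrophage and spleen experiments, by the test of the difference itself, for Col14a1 (log2 difference -1.77) and Nid2 (-1.88). Nid2 was called in only 4 of the 18 fits that left out a single library. Preparation and experiment cannot be told apart in this difference.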

How the results depend on the processing

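In the spleen comparison 2 genes were called in all and 0 of the 42 matrix genes. The count over all genes was 1 with DESeq2's size factors, 830 with DESeq2, 461 without a filter, 12 under a minimum of 1 CPM throughout a group, 1050.0 in the joint fit, 0 without air replicates 3 and 4, 0 without PM2.5 replicates 2 and 4, and 0 to 219 with 1 library left out. Omitting air replicates 1 to 4 in turn gave 2, 219, 0 and 1, and omitting PM2.5 replicates 1 to 4 in turn gave 136, 0, 0 and 0. Of the 42, DESeq2 called 12, no filter 11, the joint fit 10, and single omissions 0 to 1. The median log2 fold change of the 42 kept its sign in every alternative tried, and single omissions gave 0.528 to 1.06. Separated matrix genes numbered 11 to 19 with 1 library left out, where 5.4% to 8.87% of all genes separated. Matrix genes higher at an unadjusted p under 0.05, 25 in all, numbered 15 to 29 with 1 library left out (6.09% to 10.3% of all genes), 6 without air replicates 3 and 4, and 9 without PM2.5 replicates 2 and 4. In macrophages, with 0 called, the count over all genes was 175 with DESeq2, 1 without a filter and 0 to 17 with 1 library left out, namely 17 when air replicate 4 and 3 when PM2.5 replicate 2 was omitted. DESeq2 called 1 matrix gene there, and the median, 0.17, was -0.0277 under that minimum and -0.0788 to 0.252 with 1 library left out. For the difference between the experiments, 259 genes were called in all, 1044 with DESeq2, 9 without spleen air replicates 3 and 4, 48 without spleen PM2.5 replicates 2 and 4, 87 with macrophage PM2.5 replicate 1 counted as air, and 68 to 1317 with 1 library left out, lowest without spleen air replicate 3 and highest without spleen air replicate 2. Matrix genes called there were 6 with DESeq2, 0 and 1 without those pairs of spleen libraries, 1 with that library counted as air, and 1 to 6 with 1 library left out, again highest without spleen air replicate 2. With a replicate block, an alternative since the labels do not say that equal numbers pair animals, the difference was called for 91 genes, and it moved no other count by over 1.5 times. Deviations of same-numbered libraries correlated at -0.143 to 0.284. Between the preparations, 36 to 40 matrix genes were called. Of the named genes' alternatives, 1366 kept their side of the threshold, 40 passed it, 18 lost it and none changed sign while called. Some that were not called changed sign, as Postn in the spleen, which ran from -0.117 to 0.448. Levels near 1 CPM, as of most fibrillar collagens in macrophages, rest on few counts and limit what can be seen there. The cause of these changes was not tested.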
